A study of Mus musculus with 8 samples.

Results

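Heat shock proteins are chaperones, proteins that bind unfolded or newly made proteins and help them fold, or hold them until they can be refolded or degraded. In the cytosol the HSP70 proteins work in cycles of ATP binding and hydrolysis that J-domain cochaperones start and HSP110 proteins reset, and they hand many substrates on to HSP90. Small heat shock proteins need no ATP and hold partly unfolded proteins in solution. When unfolded protein accumulates, the transcription factor HSF1 is released from chaperones, forms trimers and binds heat shock elements, which are inverted repeats of the bases GAA. In the kidney, chaperones of this kind are known for their high level in the hypertonic inner medulla and for their induction after ischemia.

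The 10 genes described here are Hspa1a, Hspa1b, Hspa8, Hsph1, Dnajb1, Hsp90aa1, Hsp90ab1, Hspb1, Hspb8 and Hsf1, of 35275 genes in the deposited table. They were picked by gene name, selected on values of the same comparison of KO with WT that is described below, so that comparison is given for them as a description without a test. All 10 had a mean of at least 1 FPKM (a read count divided by gene length and library depth) over the 8 libraries and so passed the filter on low values.

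Poly-A selected RNA of whole left kidneys came from 8 male C57BL/6J mice aged 40 weeks, with 1 library per mouse. The 4 KO mice lacked 679 bp of C1qtnf1 on both alleles in all cells, a gene that encodes CTRP1, a secreted relative of adiponectin. The 4 WT mice were littermates from the same crosses of heterozygotes. Both groups were fed a high-fat diet (60% of calories as fat) starting at 6 weeks of age, so no group on another diet was compared. The deletion was made in 129S5/Sv stem cells and backcrossed to C57BL/6J for more than 6 generations, and KO mice may carry 129S5 sequence around it. Libraries held 17884140 to 20344859 reads. C1qtnf1 itself read 5.27 to 5.55 FPKM in the WT mice but 0.322 to 0.883 FPKM in the KO mice, so every library matched its label. The proximal tubule marker Slc34a1 was at 2906 to 3767 FPKM in the 8 mice. The 8 striated muscle markers summed to 0.801 to 1.92 FPKM in WT and 0.988 to 1.46 FPKM in KO. Of these markers only Myh2 was listed at 0 in every mouse. KO replicate 2 stood apart from the other libraries. Its FPKM column summed to 525275 against 437496 to 450339 in the other 7, and its limma array quality weight was 0.1 against 0.637 to 2.31. Its immediate early genes summed to 639 FPKM against 155 to 248 FPKM in the other 7 mice, and its endothelial markers to 67.7 FPKM against 110 to 119 FPKM. Results are therefore given with and without that mouse.

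The inducible HSP70 genes were the members with the largest ratios of means between the groups. Hspa1a and Hspa1b encode nearly the same protein, the form of HSP70 that cells make in quantity under stress. They lie next to each other on the minus strand of chromosome 17 (mm10), Hspa1b from 34956436 to 34959238 and Hspa1a from 34969190 to 34972156, each with a single exon. Of their coding bases 1918 were identical, with 8 mismatches and 3 gap positions (99.4%). In the annotated transcripts, 49.9% of all stretches of 100 bases of Hspa1b also occurred in Hspa1a. Reads from such stretches cannot be assigned to 1 gene, and how they were counted is not given in the sources used here, so the level of either gene is uncertain. Hspa1a also shares 564 exon bases with Gm20481 on the opposite strand, which was listed at 0 in every library.

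The start regions of the pair were as similar as their coding parts, with 296 of 300 bases identical (98.7%) from 250 bases before to 50 bases after the RefSeq start (GRCm38.p6). That table held 6 of the 10 members, namely Hspa1a, Hspa1b, Hsph1, Dnajb1, Hspb1 and Hspb8. Their windows were searched on both strands for 2 adjoining units of the heat shock element, GAANNTTC or TTCNNGAA, and for 3 units, GAANNTTCNNGAA or TTCNNGAANNTTC, which contain the shorter ones. A stretch of 2 units occurred in 5 of the 6 members and in 15.1% of all 32851 windows of this length. A stretch of 3 units occurred in 1 of the 6 members, Hsph1, and in 0.603% of all windows. 4 of these sites are shown. The site is the same in Hspa1a and Hspa1b, and those of Hspb1 and Hsph1 differ from it in number or place of the units. Capitals mark the matched units, each sequence is written 5′ to 3′ on the gene's strand, and position 1 is the first transcribed base by RefSeq.
Hspa1a, minus strand, chr17:34972242-34972271, 2 units from position -104: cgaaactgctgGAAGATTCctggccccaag
Hspa1b, minus strand, chr17:34959324-34959353, 2 units from position -104: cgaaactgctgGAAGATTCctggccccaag
Hspb1, plus strand, chr5:135887801-135887830, pairs of units from positions -117 and -97: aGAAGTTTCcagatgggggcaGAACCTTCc
Hsph1, minus strand, chr5:149636287-149636316, 3 units from position 37: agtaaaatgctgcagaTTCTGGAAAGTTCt
The sites of Hspa1a, Hspa1b and Hspb1 lie before the start and the 3 units of Hsph1 just after it, at position 16 when counted from a second RefSeq start of the gene. Hsph1 also had 2 units before both RefSeq starts, from position -33, or -54 from the second start. By the annotated gene coordinates given below, these units lie inside the gene. Hspb8 had 2 units from position 3, and the windows of Dnajb1 held none of these letters. A match of letters does not show binding.

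Hspa1b was at 9.13, 12.7, 7.24 and 11.8 FPKM in WT replicates 1 to 4 and at 56.7, 10.8, 28 and 25.8 FPKM in KO replicates 1 to 4. KO replicates 1, 3 and 4 lay above every WT mouse, and KO replicate 2 lay inside the WT range. The group means were 10.2 ± 2.49 FPKM in WT and 30.3 ± 19.2 FPKM in KO (SD, n = 4 each), a ratio of 2.97. Its log2 fold change was 1.31 ± 0.37 (SE, on the scale log2(scaled FPKM + 1), as for all log2 fold changes here). Without KO replicate 2 it was 1.68 ± 0.31, and without KO replicate 1, the highest mouse, 0.96 ± 0.29. These values rest on 390 to 672 reads per WT library and 555 to 2843 per KO library.

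Hspa1a, with 165 to 305 reads in the WT libraries and KO replicate 2, had the same order of mice within each group. Its values were 3.81, 5.4, 2.89 and 4.95 FPKM in WT and 20.9, 5.59, 10.6 and 9.79 FPKM in KO, from replicate 1 to 4. The groups did not overlap, although KO replicate 2 exceeded the highest WT mouse by little. Means were 4.26 ± 1.14 and 11.7 ± 6.5 FPKM (SD, n = 4 each), with a log2 fold change of 1.18 ± 0.29. It was 1.43 ± 0.28 without KO replicate 2 and 0.89 ± 0.22 without KO replicate 1. Hspa1b read higher than Hspa1a in every library, by 2.35 to 2.5 times in WT and by 1.93 (KO replicate 2) to 2.71 times (KO replicate 1) in KO.

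Hspa8 encodes HSC70, the HSP70 that nearly all cells make without stress, and it was the member with the highest mean level. It lies on chromosome 9 from 40800984 to 40810087. Its values were 430, 604, 482 and 623 FPKM in WT and 645, 620, 627 and 581 FPKM in KO. The groups overlapped, with WT replicates 2 and 4 inside the KO range and WT replicates 1 and 3 below it. The spread was wider in WT (535 ± 93.7 FPKM) than in KO (618 ± 26.9 FPKM; SD, n = 4 each), and the log2 fold change was 0.24 ± 0.14. Its FPKM were computed on a length of 3158 bases, that of an annotated transcript with a retained intron, while the longest coding transcript has 2394 bases, so a level per length set on the coding transcript would be higher. The same holds for Hsph1, with 4764 and 3802 bases.

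Set against Hspa8 within each library, which removes any scaling between libraries, the inducible pair Hspa1a and Hspa1b summed to 3.01, 3, 2.1 and 2.68% of Hspa8 in WT. In KO they summed to 12, 2.64, 6.16 and 6.13%. KO replicates 1, 3 and 4 were above every WT mouse, and KO replicate 2 was within the WT values. The summed level of all 10 members was 1047 to 1391 FPKM in WT and 1385 to 1682 FPKM in KO, of which Hspa8 and Hsp90ab1 together made up 77.7 to 85.9%.

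**Figure D1:**
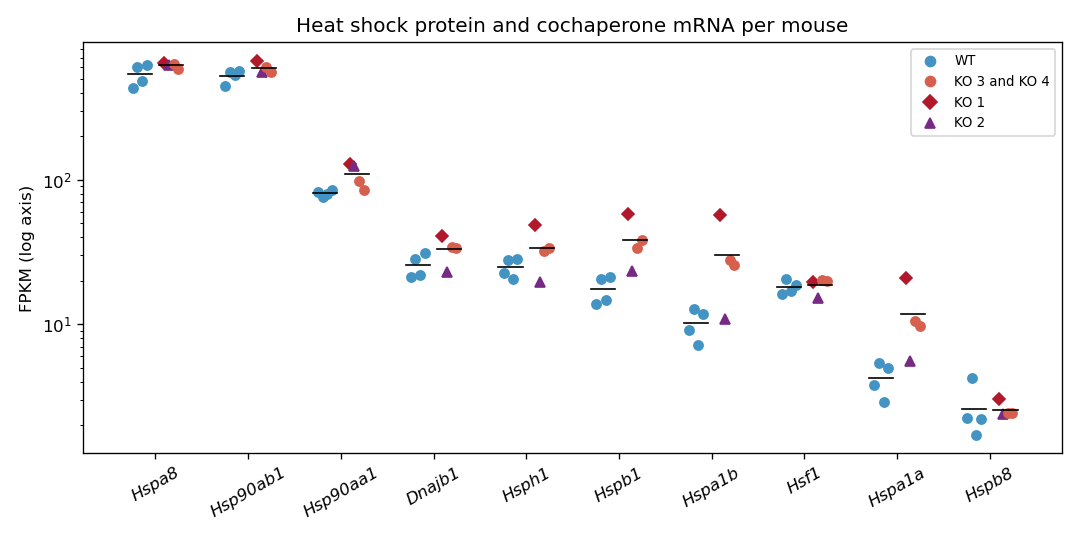
FPKM of the 10 members in each mouse, on a log axis, ordered by mean level from left to right. Each point is 1 mouse, black lines are group means, diamonds are KO replicate 1 and triangles KO replicate 2. Hspa8 and Hsp90ab1 stand at 430 to 662 FPKM, and Hspa1a, Hspa1b and Hspb1 show 3 KO mice above all WT mice with KO replicate 2 close to them.

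Hsph1 and Dnajb1 encode partners of HSP70. HSPH1 (HSP105, of the HSP110 family) exchanges the nucleotide of HSP70, and DNAJB1 (HSP40) brings it substrates and starts ATP hydrolysis. Hsph1, on chromosome 5 from 149614287 to 149636376, was at 22.8, 28, 20.7 and 28.2 FPKM in WT and at 48.8, 19.7, 32 and 33.8 FPKM in KO. Dnajb1, on chromosome 8 from 83608193 to 83612653, was at 21.2, 28.4, 21.8 and 30.9 FPKM in WT and at 41.1, 23, 34.5 and 33.8 FPKM in KO. In both genes KO replicates 1, 3 and 4 were above all WT mice. KO replicate 2 was the lowest of the 8 mice for Hsph1 and lay within the WT range for Dnajb1. The log2 fold change of Hsph1 was 0.38 ± 0.21 over 8 mice, 0.57 ± 0.16 without KO replicate 2 and 0.19 ± 0.18 without KO replicate 1. For Dnajb1 it was 0.37 ± 0.17, 0.50 ± 0.14 and 0.27 ± 0.17 in the same order.

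The HSP90 pair showed another order of mice. HSP90 folds and activates kinases and steroid receptors, and Hsp90aa1 encodes its more inducible form, Hsp90ab1 its constitutive form. Hsp90aa1, on chromosome 12 from 110690605 to 110702728, was at 81.9, 75.4, 79.5 and 85 FPKM in WT and at 128, 125, 98.4 and 85.2 FPKM in KO. KO replicates 1 and 2 were the highest mice, and KO replicate 4 was within 1 FPKM of WT replicate 4. Once the scaling factors of the libraries were applied, KO replicate 4 no longer lay above all WT mice. The log2 fold change was 0.44 ± 0.14, and 0.34 ± 0.12 without KO replicate 2, so this was the member whose difference from WT that mouse raised most. Beside the 639 FPKM of immediate early genes in KO replicate 2, whether the 2 values are related was not tested.

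Hsp90ab1, on chromosome 17 from 45567775 to 45573271, was at 446, 560, 529 and 565 FPKM in WT and at 662, 558, 605 and 555 FPKM in KO. KO replicates 2 and 4 were below the highest WT mouse, and KO replicate 1 was the highest of all. Its log2 fold change was 0.20 ± 0.12. Within each library Hsp90aa1 came to 18.4, 13.5, 15 and 15% of Hsp90ab1 in WT and to 19.3, 22.4, 16.3 and 15.3% in KO, so the groups overlapped in this ratio.

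**Figure D2:**
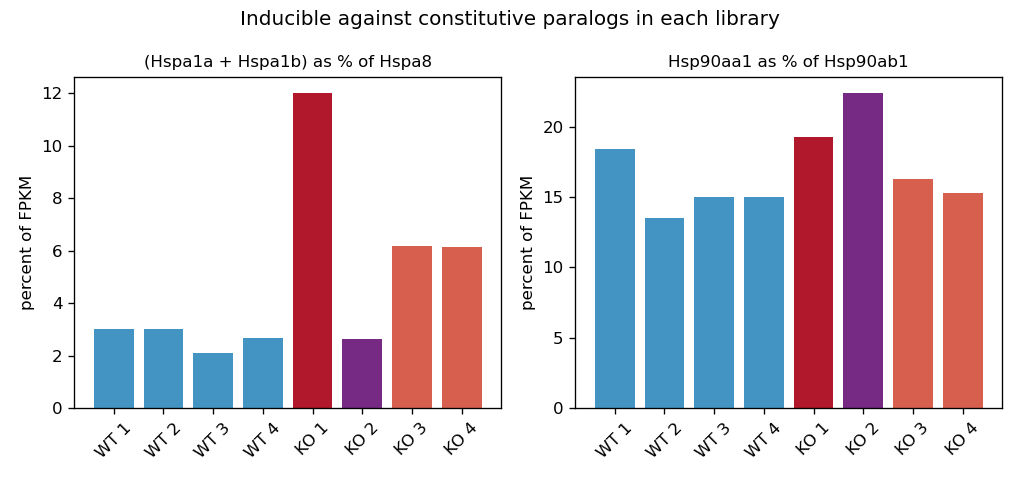
Inducible paralogs as a percentage of the FPKM of their constitutive paralog in each library, with the HSP70 pair on the left and HSP90 on the right. Bars are single mice. The HSP70 ratio is above the WT mice in KO replicates 1, 3 and 4 (12, 6.16 and 6.13%) but not in KO replicate 2 (2.64%), whereas the HSP90 ratio is highest in KO replicate 2 (22.4%).

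Of the small heat shock proteins, Hspb1 (HSP25 in mice), which also binds actin filaments, had a higher mean in KO, and Hspb8, which works with the cochaperone BAG3 in selective autophagy, had similar means. Hspb1, on chromosome 5 from 135887919 to 135889563, was at 13.8, 20.4, 14.6 and 21.1 FPKM in WT and at 57.5, 23.5, 33.5 and 38 FPKM in KO. The groups did not overlap, and KO replicate 2 was again nearest to WT. Means were 17.5 ± 3.82 and 38.1 ± 14.3 FPKM (SD, n = 4 each), with a log2 fold change of 1.05 ± 0.23, or 1.23 ± 0.22 without KO replicate 2 and 0.85 ± 0.19 without KO replicate 1. Hspb8, on chromosome 5 from 116408491 to 116422864, was at 2.25, 4.22, 1.72 and 2.22 FPKM in WT and at 3.02, 2.39, 2.45 and 2.43 FPKM in KO, from 60 to 142 reads. WT replicate 2 had its highest value, and the mean was slightly lower in KO (2.57 against 2.6 FPKM) while the log2 fold change was 0.04 ± 0.18.

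Hsf1, the transcription factor of the pathway, which is regulated mainly at the protein level, was at 16.3, 20.7, 16.9 and 18.6 FPKM in WT and at 19.6, 15.2, 20.2 and 19.9 FPKM in KO. It lies on chromosome 15 from 76477422 to 76501913. The groups overlapped, with means of 18.1 ± 1.96 and 18.7 ± 2.36 FPKM (SD, n = 4 each) and a log2 fold change of 0.06 ± 0.11. KO replicate 2 had the lowest value of the 8 mice.

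**Figure D3:**
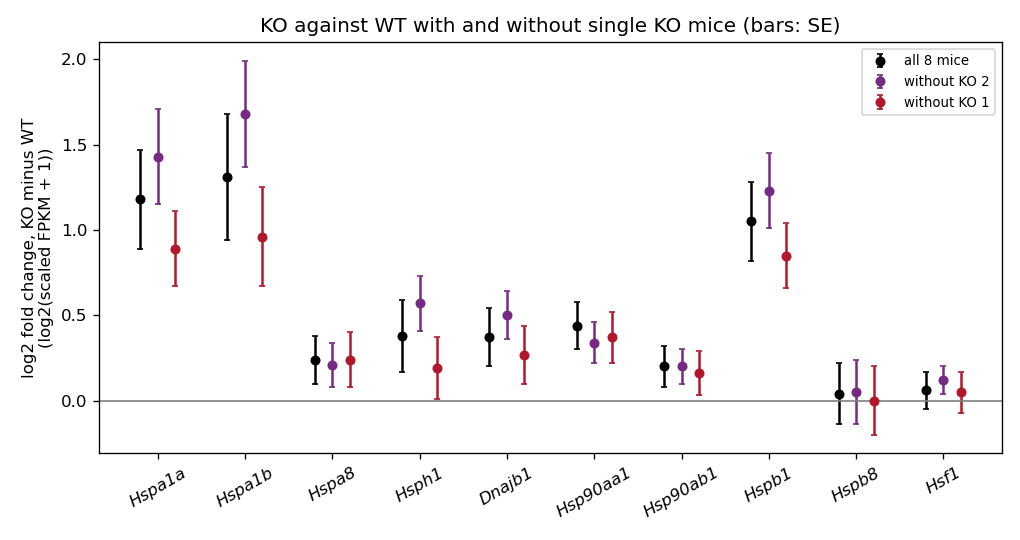
Log2 fold change of KO against WT for each member, on the scale log2(scaled FPKM + 1), with bars of 1 SE. Black points use all 8 mice, purple points leave out KO replicate 2 and red points KO replicate 1. Hspa1a, Hspa1b and Hspb1 stand at 0.85 to 1.68 in all 3 fits, and the other members at 0.57 or less.

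Among the members, 10 of 10 log2 fold changes were above 0, with a median of 0.37, where over all 12118 genes tested 47.2% were above 0 and the median was -0.01. Since the members were chosen with these values known, the count is no test of the group. With limma, 0 of the 10 passed an adjusted p of 0.05, while over all genes 2 were called higher and 3 lower (0.0413%). An unadjusted p under 0.05 was found for 4 of the 10 and for 721 of all 12118 genes. Without KO replicate 2 it was also 0 of 10, beside 0.173% of all genes called, with an unadjusted p under 0.05 for 6 of the 10 and for 1411 of all 12120 genes. These counts come from the values the members were selected on and are read as no test of them. A count model, DESeq2, whose values are not given here, did call Hspa1a and Hspb1.

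On the deposited FPKM, 3 of 10 members (Hspa1a, Hspb1 and Hsp90aa1) had all 4 KO mice above all 4 WT mice, which held for 2.29% of all genes tested. With the scaling factors applied, 2 of 10 did, against 2.33% of all genes. Leaving out KO replicate 2, 6 of 10 were separated on the deposited FPKM (those 3 with Hspa1b, Hsph1 and Dnajb1), against 5.59% of all genes. With the scaling factors applied it was 5 of 10, for which the share of all genes was not computed. KO replicate 1 was the highest of the 8 mice in 8 of 10 members and in 10.2% of all genes.

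The members also varied together within the WT group, in which the genotype is the same. WT replicates 2 and 4 both lay above WT replicates 1 and 3 in 8 of 10 members, all but Hsp90aa1 and Hspb8, and in 12.1% of all genes tested. Hspa8 shows the size of this, with 604 and 623 FPKM in the upper and 430 and 482 FPKM in the lower WT mice. The summed red blood cell genes, by contrast, were 442 and 503 FPKM in WT replicates 1 and 2 and 1138 and 1317 FPKM in WT replicates 3 and 4, another order. The median coefficient of variation of the members was 18.1% in WT and 20.8% in KO. It was widest in KO for Hspa1b (63.3%) and Hspa1a (55.4%), and narrowest there for Hspa8 (4.35%).

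**Figure D4:**
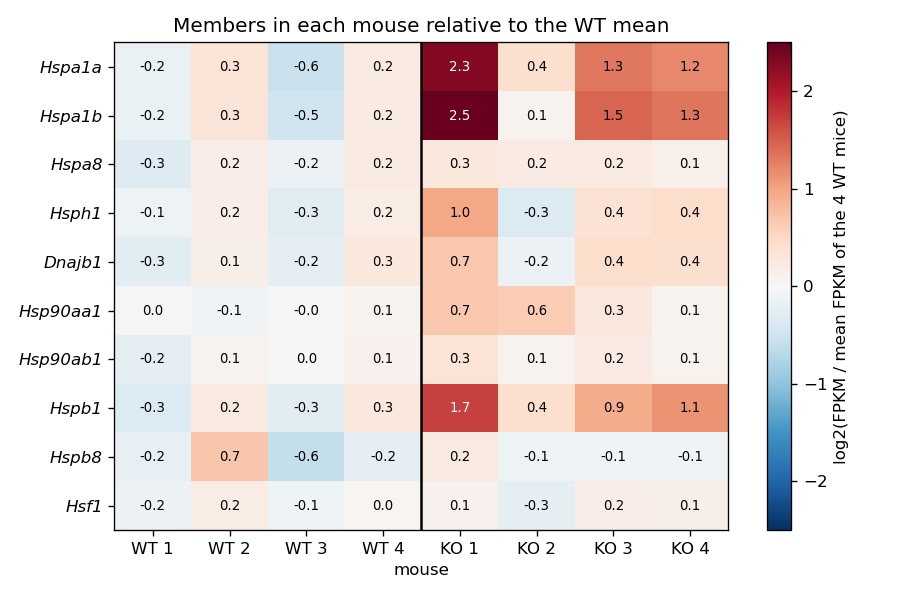
Each member in each mouse as log2 of its FPKM over the mean of the 4 WT mice (numbers in the cells), with WT left and KO right of the line. Red is above and blue below the WT mean. KO replicate 1 is above the WT mean in all 10 rows. KO replicate 2 is furthest above it for Hsp90aa1, at 0.6 on this scale, and below it for Hsph1, Dnajb1, Hspb8 and Hsf1. WT replicates 2 and 4 are above WT replicates 1 and 3 in all rows but Hsp90aa1 and Hspb8.

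Related chaperone genes were taken from 9 further lists, 82 genes of which were tested. With limma 0 of the 82 were called higher and 0 lower, and 4 had an unadjusted p under 0.05, Cryab, Fkbp4, Hspbp1 and Dnaja1, beside 721 of all 12118 genes. Without KO replicate 2 the counts were 0 higher and 0 lower, with 14 at an unadjusted p under 0.05, beside 1411 of all 12120 genes. The share of log2 fold changes above 0 was 59 of 82, beside 47.2% of all genes tested. Without KO replicate 2 it was 45 of 82, beside 46.1%.

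The other small heat shock proteins included Cryab, alpha-B crystallin, a chaperone that is abundant in lens, muscle and the renal medulla. It was at 45.9, 44.8, 49.8 and 44 FPKM in WT and at 97.5, 91.6, 61.9 and 119 FPKM in KO. Every KO mouse, KO replicate 2 included, was above every WT mouse, with KO replicate 4 highest. The log2 fold change was 0.97 ± 0.17 (limma adjusted p = 0.14), and its adjusted p by limma was 0.0053 without KO replicate 3, the lowest KO mouse. In the other 12 alternatives its adjusted p by limma was 0.14 to 0.47. Of the 4 tested members of that list 3 were positive, with a median of 0.22. Hspb2, a muscle form, was at 2.09 ± 0.801 FPKM in the WT mice and 2.96 ± 0.778 FPKM in the KO mice (limma adjusted p = 0.85).

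HSP90 cochaperones had 13 of 15 log2 fold changes above 0 and a median of 0.16. Fkbp4, an immunophilin of steroid receptor complexes, was at 122 ± 2.05 FPKM in the WT mice and 140 ± 8.69 FPKM in the KO mice (SD, n = 4 each; limma adjusted p = 0.75), without overlap. Unc45a, a myosin chaperone that binds HSP90, was at 15.9 ± 0.413 and 17.9 ± 2.12 FPKM (limma adjusted p = 0.82). Among nucleotide exchange factors and regulators of HSP70, 6 of 9 were positive with a median of 0.04. Hspbp1 was at 29 ± 1.75 and 32.9 ± 0.982 FPKM (limma adjusted p = 0.80) and Bag1 at 184 ± 4.1 and 203 ± 19.6 FPKM (limma adjusted p = 0.86).

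The other J-domain proteins had 9 of 12 positive and a median of 0.06. Dnaja1, a farnesylated partner of HSC70, was at 37.5 ± 3.62 FPKM in the WT mice and 45.1 ± 6.83 FPKM in the KO mice (limma adjusted p = 0.82), and Dnajc5 at 20.7 ± 0.512 and 18.4 ± 2.4 FPKM (limma adjusted p = 0.86). Of the other HSP70 and HSP110 genes 2 of 6 were positive, with a median of -0.04. The divergent family members Hspa12a and Hspa12b were at 7.28 ± 0.665 and 3.18 ± 0.381 FPKM in WT and at 6.02 ± 1.46 and 2.64 ± 0.549 FPKM in KO (limma adjusted p = 0.86 for both).

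Subunits of TRiC, the ring-shaped chaperonin that folds actin and tubulin, had 5 of 8 positive and a median of 0.01, or 0 of 8 and -0.06 without KO replicate 2. Cct3 was at 34.9 ± 1.65 and 36.9 ± 3.8 FPKM (limma adjusted p = 0.87) and Cct6a at 84.6 ± 3.71 and 79.6 ± 2.55 FPKM (limma adjusted p = 0.88). Of the other heat shock factors and their binding protein 2 of 3 were positive. Hsbp1, which binds HSF1 trimers, was at 103 ± 4.22 and 112 ± 22.2 FPKM and Hsf2bp at 2.85 ± 0.45 and 3.14 ± 0.564 FPKM (limma adjusted p = 0.88 for both).

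Chaperones of the endoplasmic reticulum had 12 of 14 positive and a median of 0.09. KO replicate 1 was the highest of the 8 mice in 13 of these 14 genes. Sdf2l1 was at 16.4 ± 2 and 19.7 ± 5 FPKM, and the collagen chaperone Serpinh1, itself a heat shock protein, at 44.2 ± 4.66 and 50.9 ± 8.51 FPKM (limma adjusted p = 0.86 for both). Mitochondrial chaperones had 7 of 11 positive and a median of 0.02, and KO replicate 1 was highest in 0 of the 11. Hspa9 was at 224 ± 5.62 and 201 ± 10.4 FPKM and the protease gene Clpp at 66.3 ± 2.37 and 77.4 ± 18.9 FPKM (limma adjusted p = 0.86 for both).

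**Figure D5:**
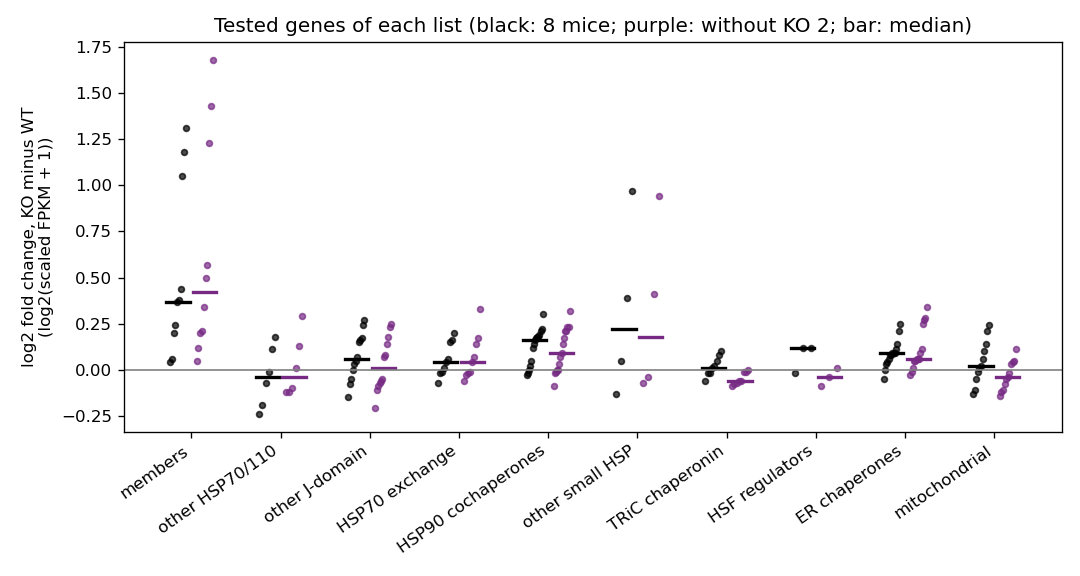
Log2 fold change of KO against WT for the tested genes of each chaperone list, on the scale log2(scaled FPKM + 1). Points are genes, bars are list medians, black uses 8 mice and purple leaves out KO replicate 2. The members, which were chosen with these values known, have a median of 0.37 over 8 mice, the other lists medians of -0.04 to 0.22 over 8 mice and -0.06 to 0.18 without KO replicate 2, and Cryab is the high point of the other small heat shock proteins at 0.97.

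Markers of other cell types and genes of the medulla were summed in each mouse. Urothelial markers summed to 4.04 to 10.3 FPKM in WT and to 34.7, 15.3, 14.9 and 28.1 FPKM in KO replicates 1 to 4. None of the 8 listed was at 0 in every mouse. Of the 6 tested, 6 were above 0 in log2 fold change, 0 were called by limma and 6 had an unadjusted p under 0.05. That p was found for 721 of all 12118 genes. WT means of Upk2, Upk3a, Upk3b and Krt5 were 0.48, 0.861, 0.862 and 0.686 FPKM. These genes passed the filter on low values only through the KO mice, so the counts and p-values are read as no test. Under alternatives 4 of the urothelial markers had a limma adjusted p under 0.05. These were Upk1a with array quality weights (0.049), Upk3a (0.043) and Krt5 (0.032) without KO replicate 3, and Psca without WT replicate 2 (0.036). With all 8 mice and no weights it was 0.63 for Upk1a, 0.16 for Upk3a, 0.34 for Krt5 and 0.15 for Psca. Over all genes, array quality weights called 30 higher and 29 lower. Leaving out KO replicate 3 called 17 higher and 4 lower, and leaving out WT replicate 2 called 4 and 3. Principal cell markers of the collecting duct summed to 367 to 494 FPKM in WT and 448 to 604 FPKM in KO, with 7 of 8 above 0. Smooth muscle markers summed to 89.8 to 108 and 106 to 117 FPKM, with 5 of 6 above 0, and proximal tubule markers to 8179 to 9638 and 9279 to 9511 FPKM, with 3 of 10 above 0. Thick ascending limb markers summed to 1609 to 1900 and 1202 to 1653 FPKM, with 1 of 6 above 0. Endothelial markers had 1 of 7 and macrophage markers 5 of 7 above 0. Adipocyte markers, with 0 tested, summed to 0.188 to 5.64 FPKM in WT and 0.83 to 6.51 FPKM in KO, highest in KO replicate 1.

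Of 8 genes of osmolyte and urea handling in the medulla 5 were above 0 in log2 fold change. Slc14a2, Slc5a3 and Pnpla6 were at 0.60, 0.11 and 0.03, and Nfat5, Aqp1 and Slc6a6 at -0.12, -0.14 and -0.29. Akr1b3, the aldose reductase that makes sorbitol, was at 18.1 ± 2.35 FPKM in the WT mice and 38.7 ± 16.3 FPKM in the KO mice (limma adjusted p = 0.42), and the betaine transporter gene Slc6a12 at 0.601 ± 0.13 and 1.55 ± 0.246 FPKM (limma adjusted p = 0.11). For Slc6a12 that p was 0.027 with array quality weights and 0.045 without KO replicate 3. Slc6a12 passed the filter on low values only through the KO mice, so its p-values are read as no test. KO replicates 1 and 4 were the 2 highest mice for Akr1b3, at 48.2 and 56.4 FPKM. How much of the members' differences goes with such cell types or with the part of the kidney sampled was not tested. In bulk kidney RNA, fewer cells of a type and less RNA per cell cannot be told apart.

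Immediate early genes, which like heat shock genes respond to stress within minutes, had another order of KO mice. All 13 tested were highest in KO replicate 2, among them Jun, a subunit of AP-1, at 70.2 FPKM against 13.3 to 19.6 FPKM in the other 7 mice. The share of all genes that were highest in KO replicate 2 was not computed. Counts of genes highest in that mouse are therefore not read as a result about a list or the members. KO replicate 2 was also highest in 5 of 11 mitochondrial chaperones and 4 of 8 TRiC subunits. The same held for 3 of 3 tested genes listed with the heat shock factors, Hsf2 and the binding protein genes Hsbp1 and Hsf2bp. KO replicate 2 was highest in 1 of 14 chaperones of the endoplasmic reticulum and 0 of 10 members. Hspa1b in that mouse was 1.05 times the WT mean, and 5.55 times in KO replicate 1, where the immediate early genes summed to 155 FPKM, below all WT mice. Btg2 was at 6.21 ± 0.486 FPKM in the WT mice and 10.8 ± 6.21 FPKM in the KO mice (limma adjusted p = 0.82) and Klf2 at 17.2 ± 2.28 and 23.6 ± 5.51 FPKM (limma adjusted p = 0.80).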

How the data were processed

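The values the authors deposited carry no unit in the header. They were treated as deposited FPKM, because totals differ between columns and the steps between low values shrink with gene length. The submitters' processing notes list CASAVA, STAR 2.5, HTSeq 0.6.1, DESeq2 and build mm10, without roles. Annotation release, filters and strand setting are not stated there. Reads per gene were worked out from those steps with fitted gene lengths, whole within 0.002 reads for all 22945 genes above 0. They served for depth and for scaling factors (trimmed mean of M values, 0.94 to 1.05). Scaled FPKM were tested as log2(FPKM + 1) with limma 3.58.1 in R 4.3.3 (trend and robust options) over the 12118 genes with a mean of at least 1 FPKM, with Benjamini-Hochberg adjustment at 0.05, and the script was tested on simulated data. Labels name separate mice and no pairs, and replicates are numbered in accession order. Alternatives were no scaling, median-of-ratios scaling, a pseudocount of 0.1, no filter, array quality weights, the summed HSP70 pair and leaving out each mouse. The members and all lists were chosen with earlier results of these data known. The genes named are all members, 2 genes of each related list with the lowest p, the 10 most alike and C1qtnf1. Jun, Slc34a1, Myh2, Hsf2, the urothelial genes and the medulla genes other than Akr1b3 and Slc6a12 were named after their values were seen. The counts by order of mice were also chosen after values were seen.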

Additional observations from a re-analysis of the deposited data

Results flagged for a closer look

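In each group of 4 mice, values of the named genes and list sums were checked for a mouse whose gap to the nearest other was large against the group's range (above Dixon's critical value for 4 values). Chance flags about 1 in 20 groups, and 12 of 120 groups met this criterion. Among the members, Hspb8 was at 3.02 FPKM in KO replicate 1 against 2.39 to 2.45 FPKM in the other KO mice, and Hsf1 at 15.2 FPKM in KO replicate 2 against 19.6 to 20.2 FPKM. KO replicate 2 also stood apart for Hspa12a (3.84 FPKM against 6.56 to 6.9), Clpp (106 FPKM against 66.7 to 69.6), Btg2 (20.1 FPKM against 7 to 8.73) and the summed endothelial markers (67.7 FPKM against 113 to 118). Hspb2 was at 4.11 FPKM in KO replicate 4 against 2.45 to 2.66 FPKM in the other KO mice. The summed BAG and exchange factors were at 461 FPKM in KO replicate 3 against 448 to 450 FPKM.

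In WT, Cct3 was at 37.3 FPKM in WT replicate 3 against 33.7 to 34.3 FPKM, and the other HSP70 and HSP110 genes summed to 63.2 FPKM in WT replicate 1 against 55.4 to 56.2 FPKM. WT replicate 2 stood apart for summed adipocyte markers, 5.64 FPKM against 0.188 to 1.04 FPKM, and for summed endothelial markers, 119 FPKM against 110 to 111 FPKM.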

How the results depend on the processing

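Over all genes, 2 were called higher and 3 lower in KO. Leaving out a mouse gave 2 to 17 higher and 1 to 12 lower, the most higher without KO replicate 3 and the most lower without KO replicate 2. Array quality weights gave 30 higher and 29 lower. The members called were 0 in all 13 alternatives fitted with limma, but not in DESeq2. Leaving out a mouse gave 0 to 1 related chaperone genes called, the 1 being Cryab without KO replicate 3. The causes of these shifts were not tested. The planned count models, edgeR and DESeq2, were run once on the whole reads and then left out, because the deposited values are FPKM and those reads rest on fitted gene lengths, so no values are given. In that run DESeq2 called many more genes than limma in both directions, the members Hspa1a and Hspb1 and the related gene Cryab among them, while edgeR called as many genes as limma and no member. The median log2 fold change of the members lay between 0.25 and 0.45 in 13 alternatives, and 8 to 10 of the members were above 0. All 132 single log2 fold changes of members under alternatives moved by less than 1 SD between mice, those of Hspa1b from 0.96 to 1.68. With Hspa1a and Hspa1b summed, it was 1.33. No paired analysis was possible because the replicate numbers only name mice in accession order. Hspb8, with 60 to 142 reads, is the member most limited by depth.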

Other observations

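Tested genes with a usual symbol were ranked by likeness to the pattern of the inducible members over the 8 mice. The 10 most alike, a number set beforehand, included genes outside the chaperone families. How many genes reached a given likeness was not counted. Likeness was measured as Pearson's r over the 8 mice with the mean log2 level of Hspa1a, Hspa1b, Hsph1 and Dnajb1, as a description, since the mice fall into 2 genotypes and the value carries no p. Those 4 genes were themselves among the 10 most alike. The other 6 were Hspb1 (0.967), the lactosylceramide synthase gene B4galt5 (0.966), Syvn1 (0.957), the J-domain gene Dnajb2 (0.928), Acpp (0.923) and the connexin gene Gja1 (0.918). Syvn1 encodes the ubiquitin ligase HRD1, which marks misfolded proteins of the endoplasmic reticulum for degradation.

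B4galt5 was at 32.4, 35.9, 29.1 and 36.8 FPKM in WT and at 59, 28.8, 39.6 and 43.5 FPKM in KO replicates 1 to 4. Like Hsph1, it was lowest in KO replicate 2 and highest in KO replicate 1, and WT replicates 2 and 4 were above WT replicates 1 and 3. Syvn1 was at 16.1, 19, 13.9 and 17.5 FPKM in WT and at 23.7, 14.7, 20 and 20.4 FPKM in KO.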
